A study of Mus musculus with 2 samples.

Results

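Islet macrophages, the resident phagocytes of the endocrine pancreas, were taken from 2 single-cell libraries of mouse islets, and 793 were found among 16072 kept barcodes. A barcode, the tag of 1 droplet, was kept with at least 500 genes, at least 1000 unique molecular identifiers (UMIs, counted RNA molecules) and at most 20% of UMIs from mitochondrial genes. A macrophage was a kept barcode with Ins1 and Ins2 below 25% of its UMIs, at least 10 UMIs summed over C1qa, C1qb, C1qc and Lyz2, at least 1 of them from a C1q gene, and at most 3 UMIs of the endothelial genes Plvap and Cdh5. Of these, 436 came from the flox/flox islets and 357 from the BcBKO islets. The genes named in this rule chose the cells, so their levels are given as a description only. Just inside the limit, 4 flox/flox and 9 BcBKO macrophages had 10 to 14 of the UMIs that chose them, and 23 barcodes of each library had 5 to 9 and stood outside it. The median was 90 of these UMIs in flox/flox and 84 in BcBKO macrophages. The limits on endothelial genes, insulin and C1q left out a further 15, 38 and 9 barcodes of the flox/flox library and 9, 111 and 6 of the BcBKO library.

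The series asks about BAF60C, a subunit of BAF chromatin-remodelling complexes, in type 2 diabetes. It compares islets of flox/flox mice with islets of BcBKO mice, in which the gene was ablated in beta cells. The deletion is ascribed to Pdx1-cre, whose promoter is also active in pancreatic progenitors, and Smarcd3, which encodes BAF60C, is taken to be the deleted gene because the title names that protein. Islets of at least 3 mice per group were pooled into 1 droplet library with 3′ tag counting, and the age, sex and diet of the mice were not given, nor whether the flox/flox mice carry Cre. A pool of mice is 1 sample, so no test between the groups was possible. All intervals here are exact 95% intervals that cover counting error only, not differences between mice or between preparations. Those of levels and ratios also leave out the uneven spread of UMIs over cells. The macrophages held 2600440 UMIs in the flox/flox and 2075613 in the BcBKO library, with medians of 5477 and 5001 UMIs and of 1640 and 1527 genes per cell. The libraries had 9438 and 10775 deposited barcodes, of which 23 occurred in both, and no barcode was a macrophage in both.

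Macrophages of the islet are long-lived cells that lie against the vessels and touch the beta cells. They depend on the receptor encoded by Csf1r and its ligands CSF1 and IL-34, take up insulin granule material and dying cells, and present antigen on MHC class II molecules to CD4+ T cells. They are also a main islet source of IL-1β and TNF when activated, and they share the pancreas with stromal macrophages of the exocrine tissue, which carry scavenger receptors such as CD206 and CD163 more often.

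The cells carried the transcripts of macrophages that the rule had not used. Csf1r was detected in 88.5% of flox/flox and 85.4% of BcBKO macrophages, against 0.683% and 0.332% of endothelial barcodes of like depth (medians of 5500 and 5341 UMIs). With each barcode thinned to 2500 UMIs, which left out 24 and 22 macrophages, Csf1r was detected in 70.6% and 64.8% of macrophages and 0.360% and 0.145% of endothelial barcodes. Ctss, which encodes the lysosomal protease cathepsin S, was detected in 99.5% and 98.9% of macrophages. Aif1 (91.5% and 94.7%), Cx3cr1 (73.9% and 78.7%), Cd68 (72.7% and 77.3%) and Adgre1, which encodes F4/80 (66.3% and 69.7%), were also widespread. Of 10 such markers, 9 had a higher level in macrophages than in any other class of barcode of either library. The exception was Mertk, an efferocytosis receptor, with 41.1 and 14.5 CPM (UMIs of a gene per 1e+06 UMIs of the class) in macrophages and 50.2 and 43.3 CPM in endothelial barcodes. A summed level of at least 3 UMIs of these 10 markers was found in 436 of 436 and 356 of 357 macrophages.

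**Figure D1:**
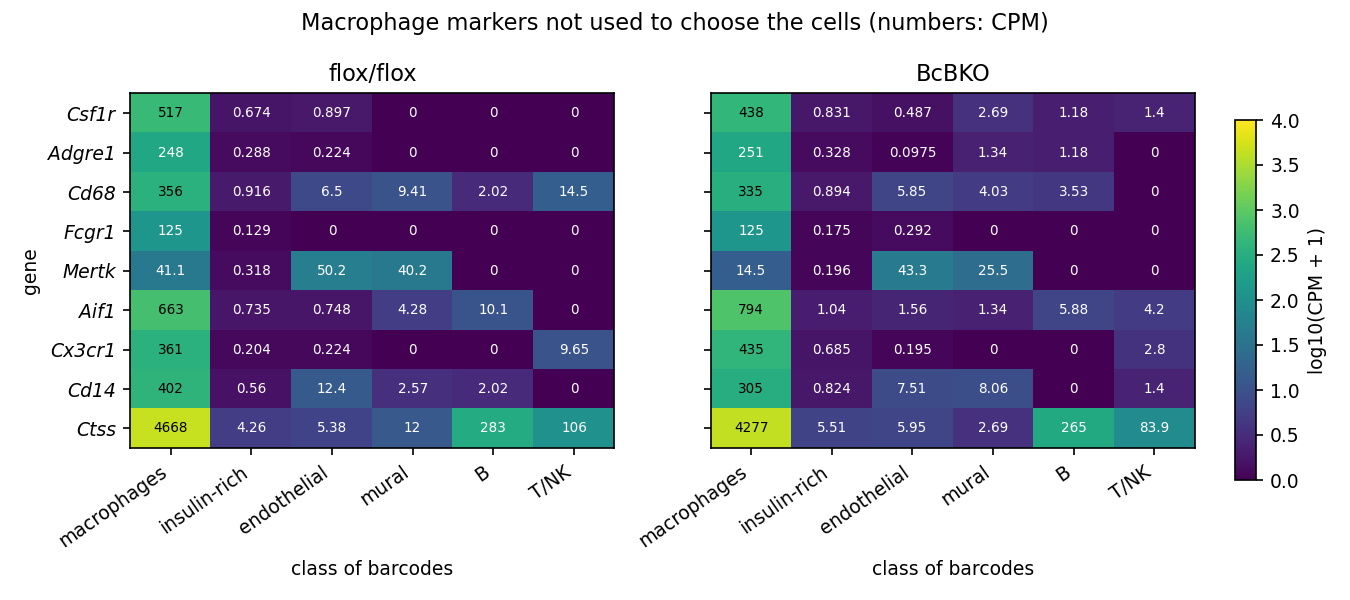
Levels in CPM of 9 of the 10 macrophage markers that did not choose the cells (rows), in macrophages and in 5 other classes of barcodes (columns), for the flox/flox library on the left and the BcBKO library on the right; colour is log10(CPM + 1) and the printed number is the CPM. Csf1r stood at 517 and 438 CPM in macrophages and at most 2.69 CPM in any other class, whereas Mertk was higher in endothelial barcodes than in macrophages.

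Defining markers of other blood cells were sparse, while genes that macrophages share with monocytes and plasmacytoid dendritic cells were not. The 10 monocyte markers summed to 338 CPM in flox/flox and 358 CPM in BcBKO macrophages, with at least 3 UMIs in 30.3% and 32.2% of them, and to 1198 and 995 CPM in endothelial barcodes. Nr4a1, an immediate-early gene on that list, gave 244 and 221 CPM of the sum. Ly6c2, a marker of inflammatory monocytes, was found in 3 flox/flox macrophages and 1 BcBKO macrophage, while Ccr2, the receptor that recruits monocytes, was found in 23.6% and 26.6%. The 6 markers of plasmacytoid dendritic cells summed to 1103 and 934 CPM, with at least 3 UMIs in 83.0% and 81.0% of macrophages, and to 1552 and 1405 CPM in endothelial barcodes. Of that sum the interferon-induced gene Bst2 gave 675 and 485 CPM, the transcription factor gene Irf8 239 and 251 CPM, and Siglech, a receptor gene of plasmacytoid cells, 62.7 and 43.8 CPM. Of 9 neutrophil markers 5 were at 0 in each library, and of 6 mast-cell and basophil markers 5 were at 0. The 10 markers of conventional dendritic cells summed to 85.0 and 83.3 CPM, with Xcr1 and Itgae at 0 in flox/flox and Flt3 at 0 in BcBKO macrophages. The 10 endothelial markers summed to 36.5 and 30.8 CPM, the 10 mural and fibroblast markers to 181 and 42.4 CPM and the 10 markers of T and NK cells to 46.1 and 39.5 CPM. In flox/flox, 57.2% of the mural UMIs came from 1 macrophage. Of the B-cell genes, Cd79a was at 0 in flox/flox macrophages and Pax5 was at 0 in both libraries. Ighm, which encodes the immunoglobulin heavy chain of class M, nevertheless stood at 151 and 175 CPM in 55.7% and 58.0% of macrophages, against 1.20 and 4.58 CPM in endothelial barcodes and 182 and 2098 CPM in B barcodes.

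Transcripts of endocrine and acinar cells were found in the macrophages, at levels that differed between the libraries. Ins1 and Ins2 made up a median of 4.45% of UMIs in flox/flox and 4.77% in BcBKO macrophages, near the 3.97% and 4.10% of endothelial barcodes. The 10 acinar markers summed to 1295 CPM in flox/flox and 197 CPM in BcBKO macrophages, and to 1260 and 146 CPM in endothelial barcodes. Glucagon (Gcg) had a median of 6 and 8 UMIs per macrophage and 6 and 7 per endothelial barcode. A small number of macrophages held far more: 6 flox/flox and 11 BcBKO cells had at least 10% of their UMIs from Gcg, Sst, Ppy and Pyy, with median depths of 21143 and 19009 UMIs. In the other macrophages Gcg stood at 1185 CPM (flox/flox) and 1692 CPM (BcBKO), instead of 9974 and 19245 CPM over all macrophages. Scrublet, a doublet caller, marked 6 flox/flox and 9 BcBKO macrophages.

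Compared with the other cells of the islet preparation, macrophages stood out by inflammatory, Fc-receptor and lipid genes. Beyond the genes of the rule, the 15 genes furthest above the highest of the other classes, with at least 200 CPM in both libraries, were Cxcl2, Wfdc17, Il1b, Ms4a7, Aif1, Mpeg1, AF251705, Tyrobp, Cx3cr1, Trem2, Csf1r, Cd14, Lst1, Fcgr3 and Apoe. Il1b, which encodes IL-1β, had 1152 CPM in flox/flox and 1004 CPM in BcBKO macrophages, against 0.822 and 0.780 CPM in endothelial barcodes. Ms4a7, a membrane protein of tissue macrophages, had 1122 and 1363 CPM and was detected in 95.4% and 95.5% of cells. Trem2, a lipid-sensing receptor, had 518 and 404 CPM, and its adaptor Tyrobp 2074 and 2412 CPM. These contrasts are a description, because the cells were chosen by the genes of the same cells.

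Apoe, which encodes the lipid carrier apolipoprotein E, had the highest level of all genes in flox/flox macrophages and was second to Ins2 in BcBKO macrophages. Summed over the cells it had 52932 CPM in flox/flox and 39402 CPM in BcBKO macrophages, a ratio of BcBKO to flox/flox of 0.744 (0.738 to 0.751), short of the 1.5-fold limit used below. Its share of a cell's UMIs ran from 0 to 15.1%, with a median of 5.64% and quartiles of 3.37% and 7.71%, in flox/flox macrophages. In BcBKO macrophages it ran from 0 to 12.6%, with a median of 4.17% and quartiles of 2.38% and 6.02%. The middle ranges of the libraries thus overlapped, and the lower median was that of BcBKO. Endothelial barcodes, with 582 and 546 CPM of Apoe, had a ratio of 0.938. Apoe lies at chr7:19696109-19699188 on the minus strand of mm10.

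Antigen presentation took the next place. The MHC class II genes H2-Ab1, H2-Eb1 and H2-Aa, whose products form the α and β chains that hold the peptide, had 12508, 12188 and 11312 CPM in flox/flox and 12304, 12015 and 11129 CPM in BcBKO macrophages. Cd74, the invariant chain that guards the groove until the endosome is reached, had 30790 and 29168 CPM. H2-DMa and H2-DMb1, which exchange that guard for peptide, had 575 and 557 CPM and 510 and 456 CPM. The costimulatory gene Cd86 had 131 and 114 CPM, Cd40 19.997 and 13.97 CPM, and Cd80 3.85 and 1.93 CPM. Of the 14 genes of the list, 8 reached 50 CPM; their ratios ran from 0.867 to 0.986 and none passed the 1.5-fold limit. The median was 0.958, beside 0.984 over all genes tested.

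MHC class II genes are known to share a promoter architecture of short boxes, shown here because these genes are among the most abundant of the macrophages. RefSeq promoter windows of GRCm38.p6, which run from 250 bases before to 50 bases after the start, were found for 7 of the 8 H2 genes of the list, and 6 of the 7 held TGATTGG, the core of the Y box, on the strand of the gene. The letters TGATTGG occurred on either strand in 7.82% of all 32851 windows. The stretches below run from 50 bases before the motif to 10 after it, on the strand of the gene, with the motif in capitals.
H2-Aa (chr17:34287857-34287923, minus strand): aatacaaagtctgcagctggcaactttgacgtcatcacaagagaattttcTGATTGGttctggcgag
H2-Eb1 (chr17:34305756-34305822, plus strand): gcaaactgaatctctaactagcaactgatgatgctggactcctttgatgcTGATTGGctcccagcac
H2-DMb1 (chr17:34153078-34153144, plus strand): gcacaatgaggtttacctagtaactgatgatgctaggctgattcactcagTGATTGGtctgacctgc
H2-DMb2 (chr17:34145107-34145173, plus strand): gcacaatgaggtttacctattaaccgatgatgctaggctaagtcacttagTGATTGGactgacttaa
H2-Oa (chr17:34092284-34092350, plus strand): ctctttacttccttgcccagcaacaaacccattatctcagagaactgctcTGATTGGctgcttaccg
H2-Ob (chr17:34238796-34238862, plus strand): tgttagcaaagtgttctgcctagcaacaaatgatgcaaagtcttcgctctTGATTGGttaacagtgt
The motif began 50 bases before the start of H2-Aa, 61 before that of H2-Eb1 and 63 before that of H2-DMb1. Genes with the same letters did not have like levels: H2-DMb2 had 10.8 and 7.23 CPM and H2-Oa 48.1 and 49.1 CPM in the macrophages, far below H2-Aa and H2-Eb1. A match is a description of the sequence and not a mapped binding site.

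Chemokine and cytokine transcripts were abundant in both libraries. Ccl4 and Ccl3, chemokines that attract leukocytes, had 3357 and 1366 CPM in flox/flox and 2961 and 1154 CPM in BcBKO macrophages. Ccl4 was detected in 321 and 250 cells and Tnf, at 427 and 391 CPM, in 72.9% and 63.0%. Cxcl2, a ligand that attracts neutrophils, was more uneven: 45.4% of flox/flox and 37.0% of BcBKO macrophages held a UMI, and the cell with most gave 3.42% and 2.63% of its UMIs to it. Il6 had 1 and 2 UMIs in all, and Nos2 had none in either library, which allows up to 1.15 and 1.45 CPM. The islets had been dispersed with an enzyme, and immediate-early and heat-shock transcripts were high: Fos had 3429 and 3298 CPM and Hspa1a 7580 and 6550 CPM, while endothelial barcodes had 3599 and 3057 CPM of Fos and 3532 and 2902 CPM of Hspa1a. Their part in the cytokine levels was not tested.

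The ligands of the CSF1 receptor were found mainly in other classes. Csf1 had 6 UMIs in flox/flox and 3 in BcBKO macrophages, against 29.9 and 29.5 CPM in mural barcodes and 10.99 and 19.2 CPM in endothelial barcodes. Il34 had 129 and 163 CPM in mural barcodes and 8 and 2 UMIs in macrophages. Of growth factors, Pdgfb was found in 31.0% and 33.3% of macrophages and Igf1 in 6.88% and 3.08%. Iron storage was prominent, with 17080 and 17776 CPM of ferritin heavy chain (Fth1), while the iron exporter Slc40a1 had 6 and 7 UMIs.

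Macrophages made up 5.76% (5.25% to 6.31%) of kept barcodes of flox/flox and 4.198% (3.78% to 4.65%) of BcBKO islets. Of the kept barcodes that were not insulin-rich they were 10.54% (9.62% to 11.5%) and 8.28% (7.47% to 9.14%). The gap was narrower without the insulin limit of the rule, which left out 38 flox/flox and 111 BcBKO barcodes that met its other terms. With these barcodes added the shares were 6.26% (5.73% to 6.83%) and 5.50% (5.03% to 6.01%) of kept barcodes. The BcBKO share was still the lower, and the counting intervals overlapped. Whether the added barcodes were mixtures with beta cells was not tested. Each library is a single pool, and the yield of cells from digestion cannot be told apart from the genotype.

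Between the libraries the macrophage transcriptomes were close, and the larger differences were mostly lower levels in BcBKO. The comparison took the 2283 genes that reached 50 CPM in at least 1 of the libraries. Of these, 34 had a ratio of BcBKO to flox/flox of 1.5 or more (1.49%) and 91 had a ratio at or below the inverse of 1.5 (3.99%), together 5.48%. The median ratio was 0.984. Of the 34 higher genes, 14 were also at least 1.5 times higher in endothelial barcodes and 4 had at least 25% of their UMIs in 1 macrophage of the library where they were higher. Of the 91 lower genes, 22 were also at least 1.5 times lower in endothelial barcodes and 11 depended to that extent on 1 macrophage. Neither held for 17 higher and 59 lower genes, and 10 and 50 of these were found in at least 20% of the macrophages of either library. Genes with fewer than 20 UMIs in endothelial barcodes were counted here as not shared with them. The 17 still include endocrine and granule genes such as Scg2, Scg3, Cpe and Isl1 and the Y-linked gene Eif2s3y. Most of the 17 did not pass the filter on genes of other cells used below.

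**Figure D2:**
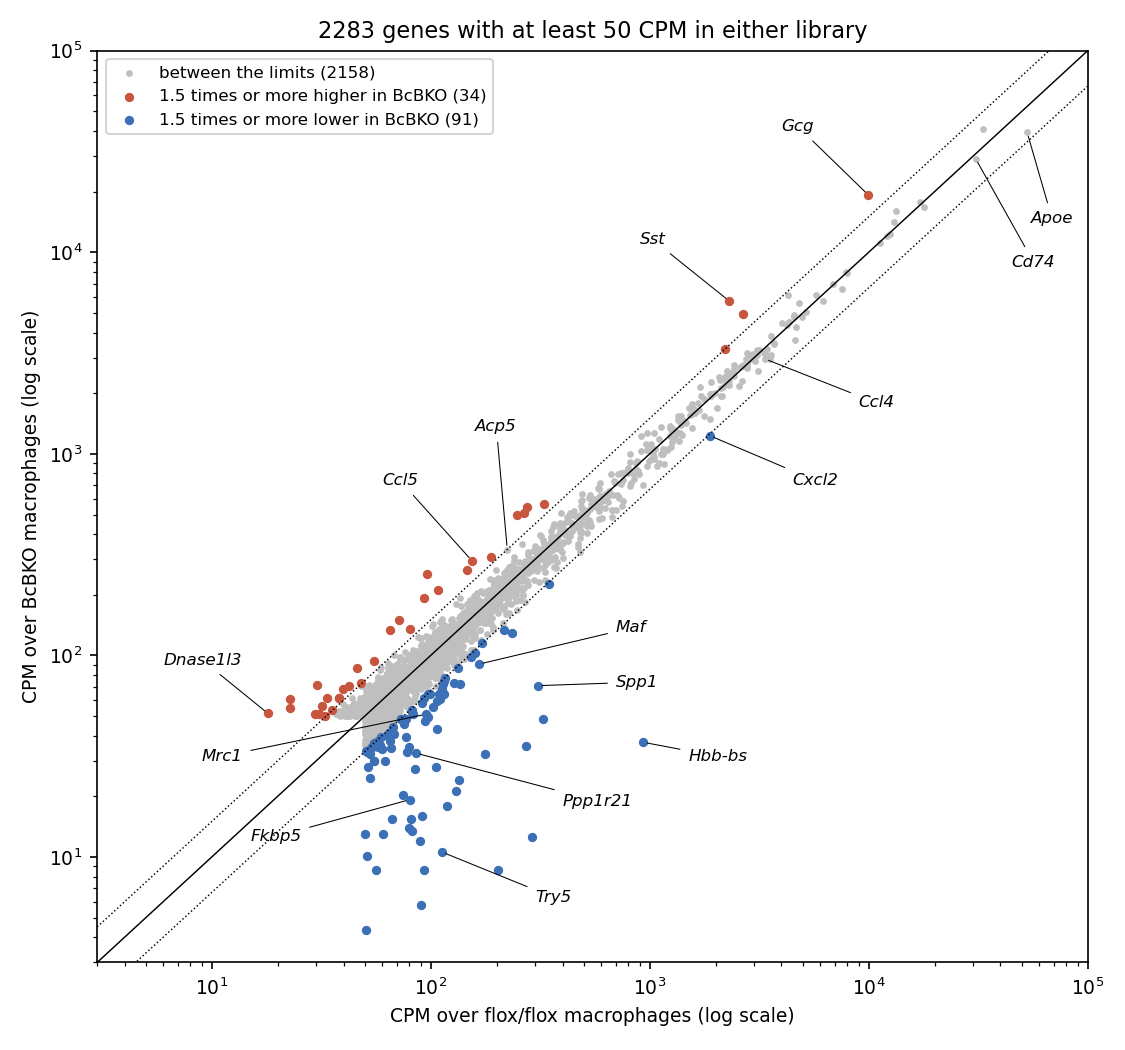
Each point is 1 of 2283 genes, placed by its CPM over flox/flox macrophages (horizontal, log scale) and over BcBKO macrophages (vertical, log scale); the solid line marks equal levels and the dotted lines 1.5-fold. The 91 lower genes include Hbb-bs (934 and 37.1 CPM) and the acinar gene Try5 (112 and 10.6 CPM), and the 34 higher genes include the hormones Gcg and Sst.

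Fkbp5 and Ppp1r21 were lower in BcBKO macrophages and were spread over many cells. Fkbp5, a co-chaperone of the glucocorticoid receptor whose transcription rises with glucocorticoids, had 209 UMIs in 159 flox/flox macrophages and 40 UMIs in 35 BcBKO macrophages. The levels were 80.4 and 19.3 CPM and the ratio was 0.240 (0.167 to 0.338). Fkbp5 was also lower in the endothelial barcodes of the BcBKO library (134 and 47.1 CPM, ratio 0.351), and its ratio was 0.643 in insulin-rich barcodes. Ppp1r21, a regulatory subunit of protein phosphatase 1 linked to endosomes, had 223 UMIs in 154 flox/flox and 68 UMIs in 61 BcBKO macrophages, a ratio of 0.382 (0.287 to 0.503). In endothelial barcodes it had 19.4 and 18.7 CPM (ratio 0.967) and in insulin-rich barcodes 6.20 and 7.22 CPM. Fkbp5 lies at chr17:28399094-28517527 on the minus strand and Ppp1r21 at chr17:88530118-88588367 on the plus strand of mm10.

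Other genes of the glucocorticoid and stress list varied. Of 11 genes 9 reached 50 CPM, none was higher and 2 were lower by the 1.5-fold limit, which 3.99% of all genes tested passed on the lower side, with a median ratio of 0.813 beside 0.984 for all genes. The lower pair was Fkbp5 and Ddit4 (52.7 and 24.6 CPM, ratio 0.466), an inhibitor of mTORC1 with a ratio of 0.971 in endothelial barcodes. Tsc22d3, which encodes the glucocorticoid-induced protein GILZ, had 268 and 185 CPM and a ratio of 0.687 (0.605 to 0.780), short of the limit. Mt1, a metallothionein, had 1104 and 898 CPM, and Sgk1 went the other way, with 196 and 236 CPM.

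Several genes of scavenging, stromal-type macrophages were lower in BcBKO. Of the 20 genes of the CD206/LYVE1 list 19 were matched and 5 reached 50 CPM; 3 were lower and 1 higher, beside 3.99% and 1.49% of all genes tested, with a median ratio of 0.552. Mrc1, which encodes the mannose receptor CD206, had 94.98 CPM in 25.7% of flox/flox macrophages and 51.1 CPM in 17.1% of BcBKO macrophages (ratio 0.538, 0.424 to 0.678). Maf, a transcription factor of such cells, had 166 and 90.6 CPM (0.545), and the scavenger receptor gene Stab1 107 and 59.3 CPM (0.552). In endothelial barcodes Mrc1 went the other way, with a ratio of 26.1, while Maf had 1.04 and Stab1 0.947. The higher gene was Folr2, a folate receptor, with 33.5 and 61.2 CPM, but 82.7% of its BcBKO UMIs came from 1 cell: it was found in 14 flox/flox and 4 BcBKO macrophages, and without the cell with most UMIs in each library its ratio was 0.383. Without the 25 flox/flox and 10 BcBKO cells that had at least 3 UMIs of such genes, the ratio was 0.668 for Mrc1, which ends its call, 0.604 for Maf and 0.643 for Stab1. Both genes of the alternative-activation list that reached 50 CPM, Mrc1 and the interleukin-4 receptor gene Il4ra (0.653, and 0.576 to 0.712 over the alternatives), were lower, beside 3.99% of all genes tested. The other 10 genes of that list were below 50 CPM.

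Inflammatory genes differed little apart from Nlrp3 and a few chemokines. Of 26 cytokine and NF-κB genes 16 were tested, 0 were higher and 1 was lower, a share near the 3.99% of all genes tested, with a median ratio of 0.861. That gene was Nlrp3, the sensor of the inflammasome, with 133 and 86.7 CPM (ratio 0.650, 0.540 to 0.780); it was at 0 in endothelial barcodes, and its ratio ran from 0.610 to 0.703 over the alternatives, on both sides of the limit. Il1b had a ratio of 0.871 and Tnf of 0.915. Of the 25 genes of chemokines and their receptors 18 were tested, 2 were higher and 5 lower, beside 1.49% and 3.99% of all genes tested (median 0.931). Cxcl2 had 4895 UMIs in flox/flox and 2555 in BcBKO macrophages, or 1882 and 1231 CPM, a ratio of 0.654 (0.623 to 0.686) that ran from 0.627 to 0.6995 over 17 alternative settings and so lay on both sides of the limit. Ccl2 had 94.2 and 47.2 CPM, with 62 and 31 cells that held a UMI, and Ccl12 had 96.9 and 49.6 CPM in 55 and 42 cells. Ccl8 and Cxcl9, the other lower genes, came from 16 and 3 and from 11 and 15 cells, with 94.7% of the BcBKO UMIs of Ccl8 and 69.5% of the flox/flox UMIs of Cxcl9 in 1 cell. Their ratios were 0.323 and 0.264. Over the alternatives they ran from 0.0261 to 0.706 for Ccl8 and from 0.25 to 0.994 for Cxcl9, so that neither kept its call under every setting. Ccl5, a chemokine that attracts T cells and monocytes, was higher in BcBKO, with 154 and 295 CPM (ratio 1.92, 1.69 to 2.18) in 51 and 71 cells. Endothelial barcodes had 4.41 and 14.5 CPM of it, a ratio of 3.29. In the BcBKO library another class of barcodes had over 2 times the macrophage level of Ccl5, and the part of RNA from other cells was not tested. Cxcl1 was the other higher gene, from 17 and 13 cells, and 50.8% of its BcBKO UMIs came from 1 of them.

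**Figure D3:**
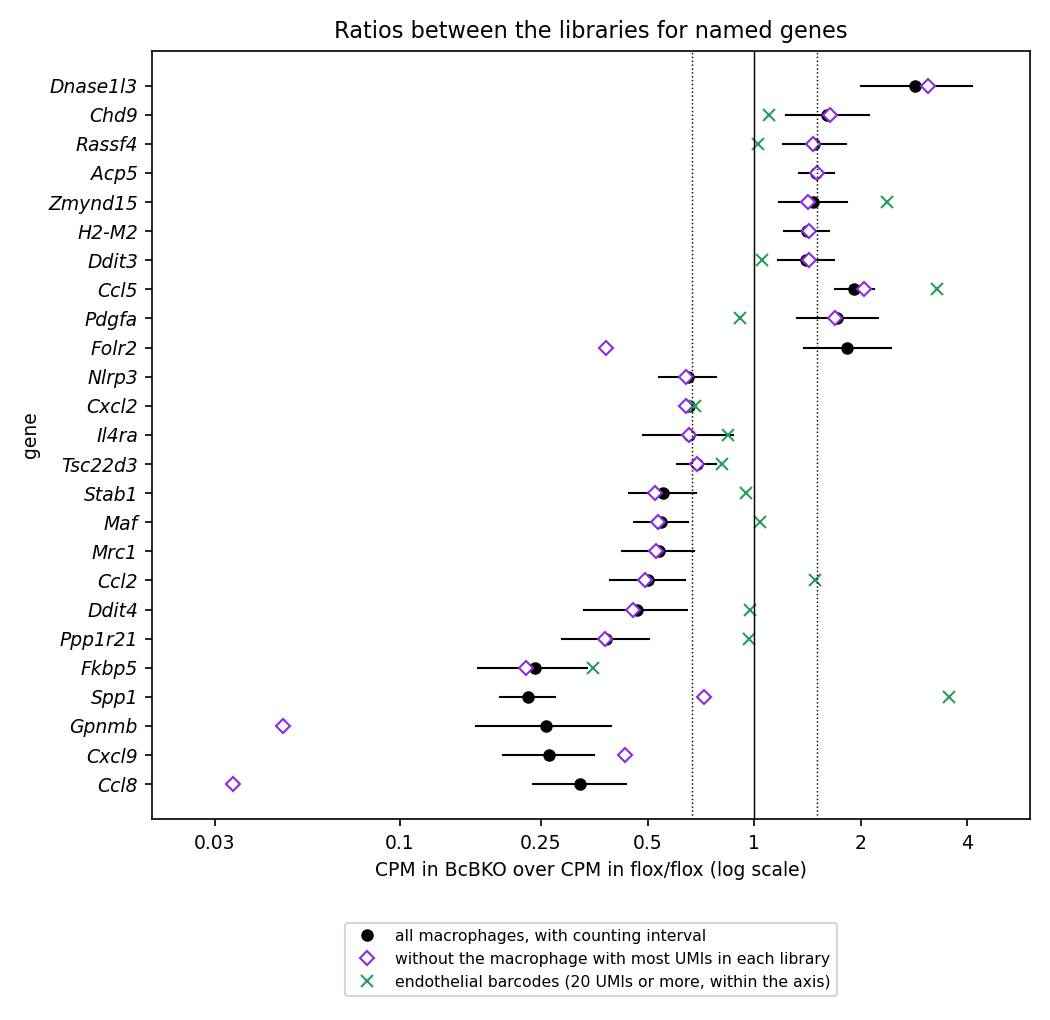
Ratio of CPM in BcBKO to CPM in flox/flox (log scale) for 25 named genes: filled circles with exact 95% counting intervals are all macrophages, open diamonds leave out the macrophage with most UMIs of the gene in each library, and green crosses are endothelial barcodes where these had at least 20 UMIs and a ratio within the axis. The diamonds stay at the circles for Fkbp5, Ppp1r21, Maf and Dnase1l3 but move from 1.83 to 0.383 for Folr2 and from 0.230 to 0.722 for Spp1. The endothelial ratios of Mrc1 (26.1) and Cxcl9 (12.6) lie outside the axis.

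Few genes were higher in BcBKO after a filter on genes of other cells. Of 2283 genes 1594 were left after removal of the listed hormone, granule and acinar markers, mitochondrial and ribosomal genes, gene models and genes with over 2 times the level in another class; 7 of these passed the limit on the higher side and 62 on the lower. The 62 still include acinar genes that were not among the listed markers (Try5, Sycn, Ctrl, Pnliprp1 and Cela1) and the haemoglobin gene Hbb-bs. Dnase1l3, a secreted nuclease of phagocytes that digests DNA of dying cells, had the highest ratio: 47 UMIs in 31 flox/flox macrophages and 107 UMIs in 65 BcBKO macrophages, or 18.1 and 51.6 CPM (2.85, 2.01 to 4.11). Endothelial barcodes had 0.0748 and 0.292 CPM of it. The chromatin remodeller gene Chd9 had 38.1 and 61.2 CPM (1.61, 1.23 to 2.11). Rbp4, Isl1 and Tmem27, which islet endocrine cells also express, were found in 7.80%, 8.49% and 15.1% of flox/flox macrophages and in 12.3%, 11.5% and 18.8% of BcBKO macrophages. Without the hormone-rich cells the ratios of Isl1 and Tmem27 were 1.38 and 1.26, below the limit, whereas that of Rbp4 was 2.98 in place of 2.62. In endothelial barcodes the ratio was 3.30 for Rbp4, 2.32 for Tmem27 and 1.46 for Isl1, so the difference in Rbp4 was not particular to macrophages. Acp5, the acid phosphatase TRAP, stood just short of the limit with 224 and 335 CPM (1.498, 1.34 to 1.68) in 54.1% and 66.9% of cells, and on both sides of it over the alternatives (1.44 to 1.77; 1.56 without the hormone-rich cells and 1.64 thinned); its endothelial level was 0.449 and 0.682 CPM. Outside the filter, Pdgfa was the only growth factor of 8 tested to pass the limit, which 1.49% of all genes tested passed on the higher side. None of the 8 was lower and the list's median was 0.957. Pdgfa was not among the 7, because another class had over 2 times its level. It stood at 39.6 and 67.9 CPM (1.72), and with every cell thinned to 2500 UMIs its ratio was 1.34.

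A further set of lower genes was spread over many macrophages, and these were chosen after their values were seen. Lpcat2, an enzyme that makes platelet-activating factor, had 235 and 129 CPM (ratio 0.547) in 291 and 172 cells. The transporter gene Slco2b1 had 102 and 55.4 CPM in 178 and 96 cells, Syk, a kinase below Fc receptors, 109 and 64.1 CPM in 183 and 110 cells, and the proto-oncogene Myc 79.6 and 35.2 CPM in 106 and 46 cells. In endothelial barcodes Slco2b1 had a ratio of 1.25, Syk of 2.03 and Myc of 1.20. In macrophages the ratio of Syk was 0.589 over all members, and 0.736, short of the limit, with every cell thinned to 2500 UMIs. Mertk, under the 50 CPM minimum, was found in 87 and 27 macrophages, a ratio of 0.351 (0.226 to 0.531).

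The lowest ratios were in part those of genes known from other cell types. Try5, Sycn, Ctrl, Pnliprp1 and Cela1, digestive enzyme and zymogen genes of acinar cells, had ratios of 0.0944, 0.135, 0.190, 0.198 and 0.270, and ratios of 0.0499, 0.135, 0.181, 0.148 and 0.234 in endothelial barcodes. Of 2428 Hbb-bs UMIs in flox/flox macrophages, 2133 came from 1 cell. Its ratio was 0.306 without the top cells, and 3.39 in endothelial barcodes. Spp1, which encodes osteopontin, had 308 and 70.8 CPM, with 85.3% of the flox/flox UMIs in 1 cell and a ratio of 0.722 without the top cells. Gpnmb, a gene of lipid-laden macrophages, was found in 12 flox/flox and 5 BcBKO cells (50.4 and 13.01 CPM).

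The functional lists given in this paragraph had median ratios from 0.835 to 1.01, apart from the islet hormone list with 1.61. Over all genes tested, 1.49% passed the limit on the higher side and 3.99% on the lower, for comparison with the counts that follow. Of 20 identity genes 18 were tested, 0 passed in either direction, and the median ratio was 1.01. Of 26 lysosomal genes 25 were tested and 0 passed (median 0.923); cathepsin D (Ctsd) was lowest, with 930 and 698 CPM. In the lists of toll-like and innate receptors (11 tested of 23) and macrophage transcription factors (18 of 25), 1 gene each was lower, namely Nlrp3 and Maf, and none was higher; their medians were 0.903 and 0.915. The 7 complement genes tested of 14 had a median of 0.962. Of 13 tested phagocytic and scavenger receptors of 24, 2 were lower (Mrc1 and Stab1), with a median of 0.835, beside 3.99% lower and a median of 0.984 over all genes. Of 14 tested lipid-handling genes of 22, 2 were lower (Pltp and Fabp5), with a median of 0.890, and Fabp5 came from 26 and 16 cells. Of 15 tested CD11c and lipid-associated markers of 20, 3 were lower (Spp1, Gpnmb and Fabp5), with a median of 0.909; Itgax, which encodes CD11c, had 158 and 160 CPM. The 17 interferon and MHC class I genes tested of 26, the 5 iron genes tested of 12, the 17 immediate-early genes tested of 20 and the 12 heat-shock genes had no gene past the limit (medians 0.896, 0.996, 0.919 and 0.884). All 12 heat-shock genes had a ratio below 1, from 0.779 for Hsph1 to 0.973 for Hsp90aa1, and Hspa1a was also lower in endothelial barcodes (0.822). Without the hormone-rich cells Hsph1 had a ratio of 0.798 but Hsp90aa1 of 1.01, so not all 12 stayed below 1. Of the 12 islet hormone and granule genes, 7 were higher (median 1.61), beside 1.49% of all genes tested. The libraries held 6 and 11 cells rich in Gcg, Sst, Ppy and Pyy. Without these cells 17 genes in place of 34 were higher over the whole table (14 shared), and 82 in place of 91 were lower (73 shared).

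**Figure D4:**
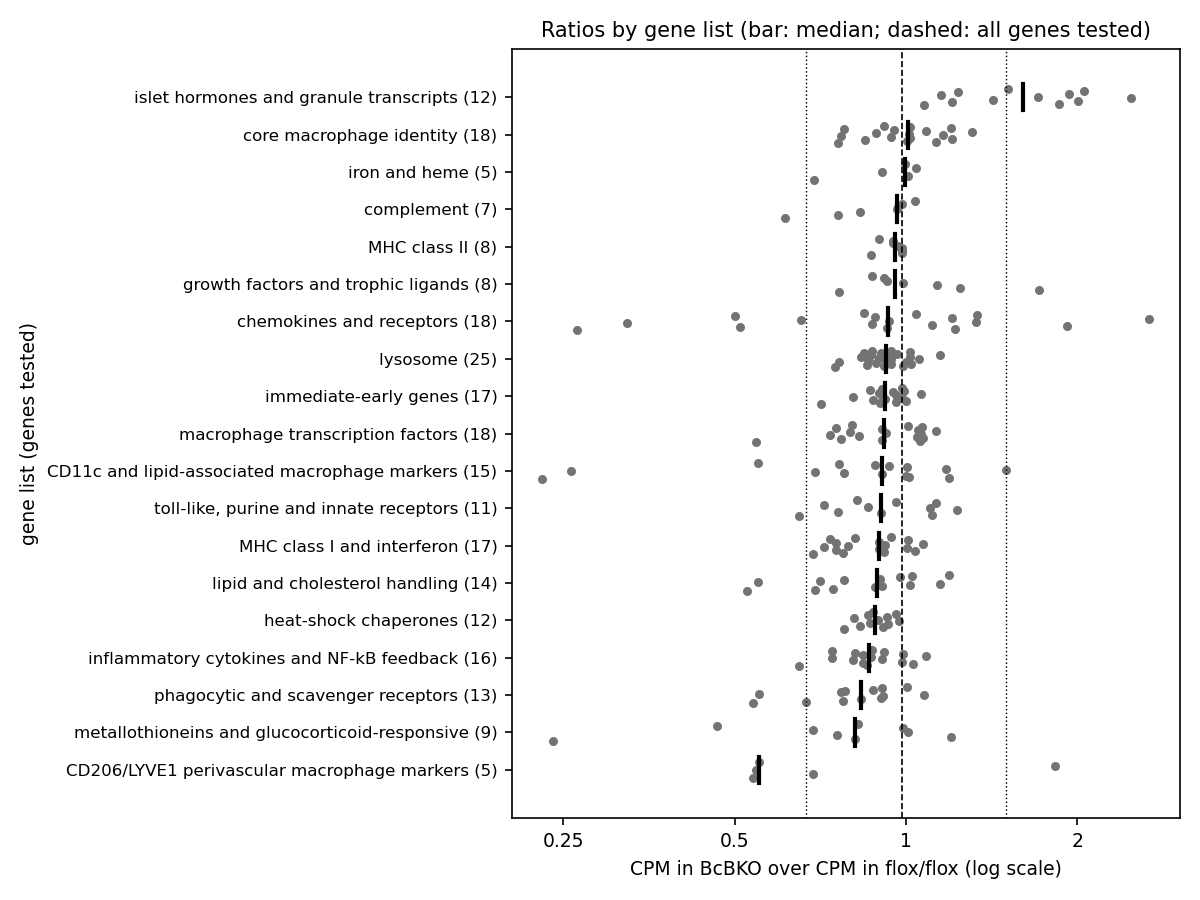
Ratio of CPM in BcBKO to CPM in flox/flox (log scale) for every tested gene (points) of the 19 gene lists with at least 5 tested genes (rows, number tested in brackets); the black bar is the list's median, the dashed line the median of all tested genes (0.984) and the dotted lines 1.5-fold. The CD206/LYVE1 list has the lowest median, 0.552, and the islet hormone list the highest, 1.61.

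Within the macrophages a small number of cells departed from the common profile. The sets that follow were cut after the data had been seen, and their cells are ranges of a summed level and not types. Lyve1, Cd163, Cd209f, F13a1 and 7 related genes summed to at least 3 UMIs in 11 flox/flox macrophages (2.52%, 1.27% to 4.47%) and 2 BcBKO macrophages (0.560%, 0.0679% to 2.01%). These few cells held 341 of 350 and 27 of 30 of all UMIs of those genes. In flox/flox they also had more Mrc1 (1228 CPM, against 64.7 CPM in the other macrophages), Ccl8 (3093 and 4.74 CPM), Pf4 (1658 and 22.5 CPM), Clec10a (799 and 5.13 CPM) and Lyz2 (10493 and 4449 CPM). They had less of the antigen-presentation genes: H2-Aa stood at 3078 CPM against 11531 CPM, and 8 of the 11 gave under 1% of their UMIs to H2-Aa, H2-Ab1 and H2-Eb1, against a median of 3.95% over all flox/flox macrophages. Itgax had 1 UMI in these 11 cells and 162 CPM in the others. The 2 BcBKO cells gave 1.84% and 2.60% of their UMIs to MHC class II.

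Lipid-handling genes marked another set. Lpl, Fabp5, Fabp4, Gpnmb and Cd36 summed to at least 20 UMIs in 11 flox/flox and 3 BcBKO macrophages, 1 of the former shared with the set above. A cut on raw UMIs favours deep cells, and these had medians of 11357 and 18388 UMIs, against 5477 and 5001 over all macrophages. In the flox/flox cells Trem2 had 2329 CPM against 428 CPM in the others, the actin-capping gene Capg 1120 against 27.5 CPM, Lyz2 19960 against 3837 CPM and the elastase gene Mmp12 1974 against 218 CPM. Apoe was lower in them, with 20105 against 54577 CPM, and so was H2-Aa (3779 against 11689 CPM). In the 3 BcBKO cells Trem2 had 1390 against 358 CPM, Capg 890 against 19.2 CPM and H2-Aa 1488 against 11576 CPM, but Lyz2 (3703 against 3659 CPM) and Mmp12 (228 against 308 CPM) did not stand higher, and 1 of the 3 was also rich in islet hormones. Of the 810 UMIs of the lipid genes in these 3 cells, 508 came from 1 cell with 58144 UMIs. The BcBKO levels of the set thus rest largely on that cell. The chaperone gene Hspa1a was lower in these cells of both libraries (653 against 7927 CPM and 543 against 6829 CPM).

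Interferon-induced transcripts were uneven, with a small set of cells that held a large part of them. Ifit1, Ifit2, Ifit3, Isg15, Irf7, Mx1, Rsad2 and Usp18 summed to at least 10 UMIs in 12 flox/flox (2.75%) and 15 BcBKO macrophages (4.202%, 2.37% to 6.84%). These cells held 395 of 830 and 257 of 630 of the UMIs of those genes, so that most lay in the other macrophages. Cxcl10, an interferon-induced chemokine outside this sum, had 705 CPM in these flox/flox cells against 198 CPM in the others, and 1609 against 143 CPM in BcBKO. MHC class II stayed high in most of them, with medians of 3.50% and 4.07% of UMIs. In flox/flox 2 of the 12 lay under 1%, beside 23 of all 436 macrophages, and in BcBKO 0 of the 15 did. Of the 12, 2 also belonged to the set cut by Lyve1, Cd163 and related genes. Of 16 proliferation genes 2 reached 50 CPM and neither passed the limit (median 1.03). Proliferation genes such as Mki67 and Top2a summed to at least 3 UMIs in 7 and 4 macrophages.

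**Figure D5:**
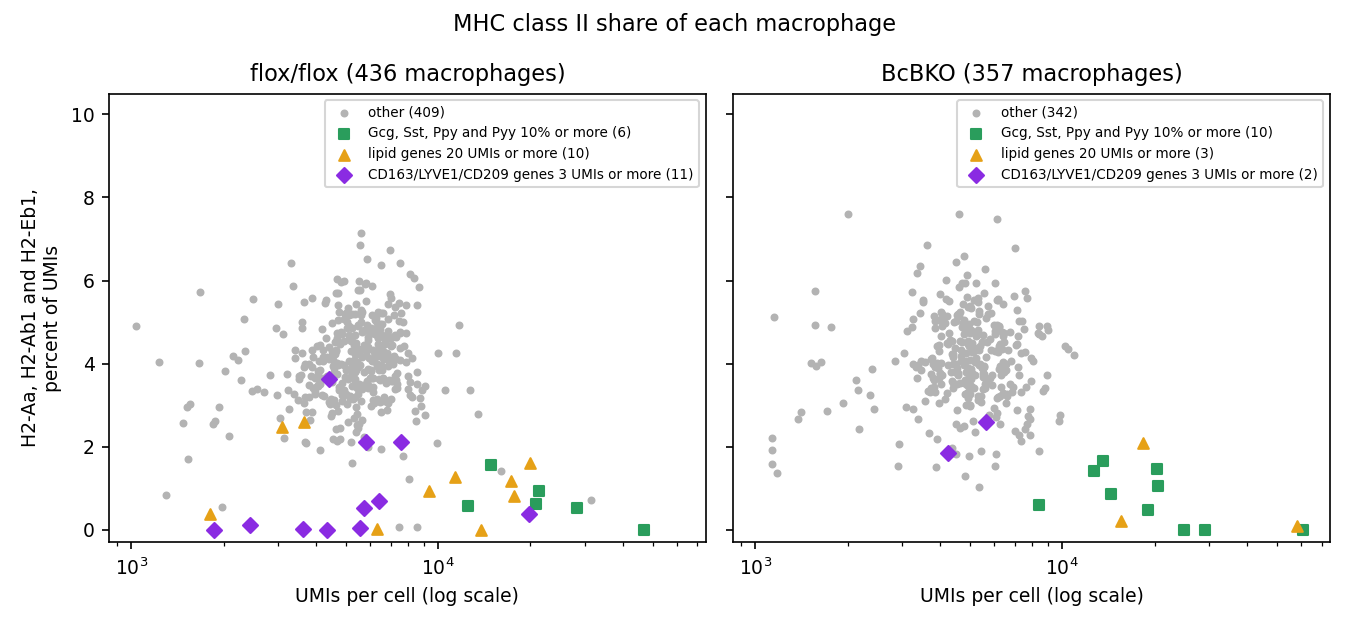
Each point is a macrophage, placed by its UMIs (horizontal, log scale) and by the percent of them from H2-Aa, H2-Ab1 and H2-Eb1 (vertical), for flox/flox on the left and BcBKO on the right; a cell that belongs to several sets is drawn once, in the order diamond, triangle, square. Of the cells, 391 of 436 and 317 of 357 lie between 2% and 6%, whereas many diamonds (CD163/LYVE1/CD209 genes), triangles (lipid genes) and squares (islet hormones) lie below 1%.

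The macrophages were also split by the level of chosen genes. A gene was described as different if its ratio between the high and the low cells was at least 2 in the same direction in both and it reached 100 CPM in 1 side of each. By Mrc1, Folr2, Lyve1, Cd163, Cbr2 and F13a1, 25 flox/flox and 10 BcBKO cells with at least 3 UMIs were set against 322 and 296 cells with 0. Of 1160 genes, 126 were higher and 55 lower in the high cells. The chemokine gene Ccl8 (at 0 in the low BcBKO cells), the lectin gene Clec10a, Atp6v0d2, Pf4, Anxa1, Lpl, Igf1 and Cfp had the largest ratios; Igf1, a growth factor, had 256 against 9.54 CPM in flox/flox and 474 against 4.78 CPM in BcBKO. The co-chaperone gene Dnajb1 (523 against 2244 CPM and 384 against 1761 CPM) and Tmem119 (26.2 against 195 CPM and 32.7 against 128 CPM) were lower, the latter a gene also known from microglia. Few cells carried some of these: Ccl8 was found in 10 high cells of flox/flox and 2 of BcBKO. The high cells overlapped the lipid set, which gave 8 of the 25 flox/flox and 2 of the 10 BcBKO cells and 51.9% and 60.2% of their UMIs; 1 BcBKO cell alone, with 58144 UMIs, gave 47.5%. With the lipid set removed, 17 and 8 high cells were left, 75 genes were higher and 24 lower, and only 32 of the 126 and 12 of the 55 were shared. Ccl8, Clec10a, Pf4, Igf1 (294 against 6.45 CPM and 205 against 4.83 CPM) and Cfp kept their call and so did Dnajb1. Atp6v0d2, Anxa1 and Lpl were then under 100 CPM, and Tmem119 had a ratio of 0.636 in BcBKO.

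CD11c genes and MHC class II sorted the cells less sharply. By Itgax, Cd72, Gpnmb, Lpl and Cd9, 191 and 158 macrophages had at least 5 UMIs and 88 and 66 at most 1, and the high cells were deeper (medians of 6145 and 5765 against 4646 and 4391 UMIs). Of 1026 genes 11 were higher and 1 lower; Ccl5 led, with 254 against 12.2 CPM and 467 against 48.9 CPM, followed by Anxa1, Anxa2, Fabp5 and Lgals3. Without the lipid set 2 of the 11 kept their call, Ccl5 (219 against 12.2 CPM and 509 against 48.9 CPM) and Phf11b. By the share of MHC class II, 145 and 119 cells with the highest values were set against as many with the lowest. H2-M2, Scimp, Cd74 and Sh2d1b1 were higher among 1049 genes, and 37 were lower, among them Capg, Fabp5, Anxa1, Pf4 and Lpl of the lipid and stromal-type cells and Rbp4 of endocrine cells. Of the 37, 24 kept their call without the lipid set and 15 without the hormone-rich cells; Rbp4 was among the 24, and Capg, Fabp5, Anxa1, Pf4 and Lpl were not, being under 100 CPM in at least 1 library. Scimp, an adaptor of MHC class II signalling, had 222 against 80.6 CPM and 246 against 99.2 CPM.

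BAF60 transcripts were low in macrophages. Smarcd3, the gene read from the title, had 1 UMI in each library, so its ablation could not be checked in these cells; mural barcodes had 64.2 and 41.6 CPM. Smarcd2 had 25.8 and 22.6 CPM and Smarcd1 11.5 and 12.5 CPM. Of 15 BAF genes 2 reached 50 CPM, Arid1a (85.8 and 88.2 CPM) and Smarca2 (48.5 and 54.0 CPM), and neither passed the limit (median 1.07).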

How the data were processed

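Both pooled islet libraries were used, 1 per group, so no batch or replicate could be modelled. The authors deposited raw UMI counts, which were used as they stood. Per the submitters' processing notes, Cell Ranger 3.1.0 and Seurat 4.0.0 were used on mm10, while per the file headers the matrix came from version 6.1.2 of the counting software; which version produced the deposited matrix was not settled. The macrophages and the gene lists were chosen with earlier results of these data known. UMIs were summed over macrophages and divided by their total (CPM); no pseudocount was added, and a gene at 0 was set to a floor of 3 counts. Ratios have exact conditional, CPM exact Poisson and shares exact binomial (Clopper-Pearson) intervals at 95%, which cover counting error only. Other classes were endothelial, mural, B, T/NK and insulin-rich barcodes; these were cut by summed UMIs of their own genes and hold no cells of the macrophage rule. Named genes were the 12 highest and 12 lowest eligible ratios, the extremes and called genes of each list, the 15 genes furthest above other classes, the 8 largest differences of each split and a fixed set; not every such gene is printed, and a few genes are not reported here. Doublets were kept and tried without. Ratios and intervals were tested on simulated counts drawn independently for each gene, which do not hold the uneven spread of UMIs over cells. Python 3.11.15, scipy 1.17.1, scanpy 1.11.5 and edgeR 4.0.16 (TMM factors) were used. Positions are from GENCODE M21, with 28339 of 28692 identifiers matched.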

Additional observations from a re-analysis of the deposited data

How the results depend on the processing

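No paired analysis was possible because each group has 1 library. The number of genes higher in the BcBKO library (34) was 148 with a minimum of 20 CPM, 13 with 200 CPM, 3006 with no minimum, 21 with the mean of each cell's CPM, 62 with cells thinned to 2500 UMIs and 17 without the hormone-rich cells, an alternative chosen after seeing the data. The number of genes lower in the BcBKO library (91) was 272, 10 and 2607 with minimums of 20 CPM, 200 CPM and none. Under the other settings these numbers ran from 25 to 45 and from 74 to 136. Of the 34 higher genes, 17 kept their call with the mean of each cell's CPM, 15 with thinned cells and 14 without the hormone-rich cells. Of the 91 lower genes, 69, 66 and 73 kept theirs under the same settings. The median ratio of all genes ran from 0.970 to 1.02 over the settings. Macrophages were 6.48% and 4.70% of barcodes with a stricter cell filter, 3.73% and 2.35% with insulin under 5%, 0.0925% and 2.89% without cells that had 3 UMIs of another class, and, with no insulin limit, a setting chosen after seeing the data, 6.26% and 5.50%. The setting without cells of another class kept only 7 flox/flox and 246 BcBKO macrophages, because nearly all flox/flox cells carried acinar UMIs, so no ratio was computed under it. Of 45 named ratios past 1.5-fold only Folr2 changed direction: 0.489 with insulin under 5%, 0.392 with the mean of each cell's CPM, 0.307 thinned and 0.383 without the cell with most UMIs. Between 36 and 45 of the 45 remained past it under each setting. Of the 83 named ratios short of 1.5-fold, 25 lay on the other side of 1 under at least 1 setting. In the split by CD206/LYVE1 genes, 263 genes in place of 126 were higher with thinned cells (77 shared), 92 in place of 55 were lower with stricter thresholds (50 shared), and 75 were higher (32 shared) and 24 lower (12 shared) without the cells of the lipid set, which was tried after seeing the data. Thinning gave 37 lower there, 21 of them shared. In the split by CD11c genes, stricter thresholds gave 29 higher in place of 11 (8 shared) and 14 lower in place of 1, thinning gave 10 higher (4 shared) and 5 lower, and removal of the lipid set gave 3 higher (2 shared) and 4 lower. In the split by MHC class II, stricter thresholds gave 9 higher in place of 4, thinning gave 1 higher and 20 lower in place of 37 (13 shared), removal of the hormone-rich cells gave 1 higher and 29 lower (15 shared), and removal of the lipid set gave 3 higher and 28 lower (24 shared). Fewer UMIs or cells enter under thinning and stricter thresholds; otherwise the cause was not tested. With 1 pool per group, no interval here covers differences between mice.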
